A study of Mus musculus with 109 samples.

Results

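In the retina series, 11 of 109 whole-retina libraries formed the repeat of the combined cytokine injection in wild-type mice: 6 retinas injected with IL1A+TNF and 5 with PBS. The rule that picked them used the labels genotype WT, batch 2 and day 2 and no expression value, although earlier results of these data were known when the comparison was chosen. The study injected IL1A, TNF or both into the vitreous of C57BL/6J mice aged 2 to 6 months, and of mice lacking Jun or Sarm1, to learn how these cytokines act on retinal ganglion cells (RGCs). The groups described here carried no deleted gene, and the agents were IL1A and TNF together in 2 μL, or PBS (the methods give 0.05 μg/μL for TNF and 0.1 μg/μL for IL1A when given alone). The 5 mice 61720, 61721, 61722, 61927 and 62224 gave an IL1A+TNF retina and the PBS retina of the other eye, and mouse 61719 gave an IL1A+TNF retina only. There were 3 females and 3 males among the IL1A+TNF retinas and 2 females and 3 males among the PBS retinas. Both groups received an injection, and below, injected retinas are those given IL1A+TNF and controls those given PBS. The comparison group was the first batch, with 10 IL1A+TNF and 31 PBS retinas of the same genotype and day, from other mice, so that the batches shared no retina. The question was whether the response of the first batch recurred in these separate mice. As models, both groups are limited by the bolus injection. Another limit is that each of the 5 PBS retinas of batch 2 was the opposite eye of a cytokine-injected animal.

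Total counts were 42875980 to 63122762 in PBS retinas and 49558686 to 79064488 in IL1A+TNF retinas, against 30014757 to 45779899 in the first batch, whose range overlapped that of the PBS retinas. Levels are given as CPM (counts scaled to a common library size), scaled by trimmed means over the 52 retinas of both batches, and PBS values are listed in the order of mice 61720, 61721, 61722, 61927 and 62224. Retinal markers were abundant in each retina, with Glul, of Müller glia, at 658 to 2166 CPM. Lens RNA set 2 retinas apart: Cryaa, a lens crystallin, stood at 2860 CPM in the IL1A+TNF retina of mouse 61721 and at 764 CPM in the PBS retina of mouse 62224, against at most 4.69 CPM in the other 9. Over 9 lens genes the summed level was 4599 and 1343 CPM in these 2 retinas, and some retinas of batch 1 held as much (up to 4420 CPM). Markers of the retinal pigment epithelium (RPE) also varied, with Dct at 166 to 558 CPM in PBS retinas and 3.82 to 384 CPM in IL1A+TNF retinas, lowest in that of mouse 61720. List counts are therefore also given without the 2 retinas holding lens RNA, an alternative chosen after the crystallin levels were seen.

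IL1A signals through IL1R1, its accessory chain and MYD88 with the IRAK kinases, and TNF through TNFRSF1A and TNFRSF1B with the TRAF and BIRC proteins. Both routes release NF-κB from its inhibitors and activate AP-1, and the cytokines and chemokines made in turn bring in the JAK-STAT pathway, whose STAT3 arm drives acute-phase genes and whose interferon arm drives interferon-stimulated genes. In the retina the receptors are found on glia, vessels and neurons, Müller glia and astrocytes respond by reactive gliosis, and microglia and blood leukocytes add to the RNA of the tissue.

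The promoters of 7 target genes are shown because they carry the letters that the factors of these pathways bind, and because their genes are described further on. The sequences come from RefSeq (GRCm38.p6), read 5′ to 3′ on the strand of the gene, and capitals mark the matches: GGGNNNTTCC for NF-κB in Nfkbia, Nfkb2 and the later matches of Cxcl10, GAAANNGAAA for the interferon-stimulated response element (ISRE) in Ifit3, Isg15 and the first match of Cxcl10, and TTCNNNGAA for the STAT site called GAS in Irf1 and Socs3. Overlapping matches are joined, as in Isg15, and a match may lie on either strand.
Nfkbia, chr12:55492648-55492706, minus strand: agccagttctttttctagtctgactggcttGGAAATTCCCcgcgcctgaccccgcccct
Nfkb2, chr19:46304669-46304736, plus strand: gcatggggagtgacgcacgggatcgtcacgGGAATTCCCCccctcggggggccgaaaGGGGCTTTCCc
Cxcl10, chr5:92348954-92349132, minus strand: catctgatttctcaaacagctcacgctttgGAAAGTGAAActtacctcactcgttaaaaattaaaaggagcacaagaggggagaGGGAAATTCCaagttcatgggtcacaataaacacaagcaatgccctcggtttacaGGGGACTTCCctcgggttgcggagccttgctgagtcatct
Ifit3, chr19:34583343-34583446, plus strand: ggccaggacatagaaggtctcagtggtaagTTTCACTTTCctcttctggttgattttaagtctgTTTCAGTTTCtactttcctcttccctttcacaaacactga
Isg15, chr4:156200845-156200926, minus strand: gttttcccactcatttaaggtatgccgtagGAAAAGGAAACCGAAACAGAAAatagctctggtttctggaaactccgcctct
Irf1, chr11:53769894-53769962, plus strand: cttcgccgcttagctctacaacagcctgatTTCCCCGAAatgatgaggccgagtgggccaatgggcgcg
Socs3, chr11:117969482-117969550, minus strand: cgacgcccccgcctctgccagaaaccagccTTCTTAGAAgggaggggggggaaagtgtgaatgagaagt

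Within 250 bases before the start, on both strands, the NF-κB letters were found for 765 of the 12849 tested genes that had a promoter sequence (5.95%), the ISRE letters for 3.19%, the GAS letters for 7.23% and the AP-1 letters TGANTCA for 5.86%. Among genes higher in IL1A+TNF retinas the shares were 7.64%, 4.84%, 8.72% and 7.42%, and among genes lower 5.38%, 2.52%, 6.70% and 5.79%. The NF-κB letters were in 7 of 11 genes of the NF-κB list and 4 of 11 chemokines, the ISRE letters in 8 of 18 type I interferon genes and 7 of 17 genes of the interferon gamma and antigen presentation list. The GAS letters were in 6 of 17 genes of that list and in 1 of 12 genes of the IL6 family and STAT3 list, and the AP-1 letters were in 0 of 11 genes of the AP-1 and immediate early list. These are matches of letters and were not tested as binding sites.

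IL1A+TNF changed 7135 of 18920 genes tested in this batch (37.7%) at a false discovery rate (FDR, limma with Benjamini-Hochberg adjustment) under 0.05. Of these differentially expressed genes (DEGs), 3711 were higher (19.6% of genes tested) and 3424 lower (18.1%), and 1241 changed by at least 1 on the log2 scale, 988 of them upward. The groups did not overlap for 4317 genes (22.8%), 2475 of them higher (13.1%) and 1842 lower (9.74%). In what follows a number after rose by or fell by, or standing first in parentheses after a gene, is a log2 fold change. Over all genes tested the median log2 fold change was -0.02, the value against which list medians are read. List counts are read against the shares of 19.6% higher and 18.1% lower. Without the 2 retinas holding lens RNA there were 5598 DEGs. Leaving out mouse 61720 gave the fewest (4749), and leaving out any of the other mice gave 5509 to 6501. List counts with retinas left out are read against such totals, since calls were lost over all genes. Genes lower were 2074 of 19071 without mouse 61720 and 2684 of 18973 without the 2 retinas holding lens RNA. Genes higher were 2675 and 2914, and 2870 of 18956 without mouse 62224.

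Hmox1, the heme oxygenase that breaks down heme to iron, biliverdin and carbon monoxide, had the smallest FDR. Its level was 14.2, 9.39, 8.34, 9.23 and 9.70 CPM in the 5 PBS retinas and ran from 133 to 268 CPM (median 178) in the 6 IL1A+TNF retinas. Every IL1A+TNF retina was far above every PBS retina, for a log2 fold change of 4.11 (SE 0.18, FDR = 1.6e-06), with 4.05 in batch 1. Next by FDR came Ctss, a lysosomal protease of myeloid cells (log2 fold change 1.97), Cd93, a lectin-like receptor of endothelium and myeloid cells (2.02), St8sia4, which builds polysialic acid (1.53), and A930033H14Rik, which fell (-1.02). None of these genes had overlapping groups.

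The 10 largest rises among DEGs averaging at least 1 CPM were mostly genes known from leukocytes. Siglecf, a sialic acid receptor of eosinophils and some macrophages, went from at most 1.28 CPM in PBS retinas to 19.7 to 60.2 CPM (log2 fold change 5.34). Cd101 and Sirpb1b, myeloid surface receptors, Cd300lb and Pilrb2, activating receptors of myeloid cells, Slfn1 of the Schlafen family and Ltb, lymphotoxin beta, rose by 4.78 (Pilrb2) to 5.13 (Ltb), from at most 1.14 CPM in any PBS retina. Mylk2, a myosin light chain kinase, had the largest value (6.86, SE 1.83) and the widest spread, from 0.662 to 13.8 CPM, with both ends above the PBS maximum of 0.0631 CPM. At such PBS levels it passed the filter on counts only through its IL1A+TNF retinas, and the size of its change is uncertain. Its call was lost without mouse 61721 or 61722 (FDR = 0.052 in each case). Sirpb1b, with its lowest PBS values at 0 and 0.143 CPM, also needed its IL1A+TNF retinas to pass the filter. The size of its rise is uncertain as well. S100a8, an alarmin of neutrophils and monocytes, and the unnamed locus ENSMUSG00000092215 (5.0) completed the set.

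The 10 largest falls held a microglial receptor, a cone gene and pigment epithelium genes. Siglech, a receptor of resident microglia, was at 3.74, 3.19, 3.06, 2.85 and 2.7 CPM in PBS retinas and at 0.261 to 0.736 CPM (median 0.433) after IL1A+TNF. That was a fall to below every control (log2 fold change -2.81, SE 0.18, FDR = 4.2e-06). Arr3, the cone arrestin (-2.32), Glb1l3, a galactosidase-like gene (-2.69), Spc25, a kinetochore subunit (-2.39), and the noncoding Gm16055 (-2.89) also fell without overlap. Groups overlapped for Rgr, an RPE and Müller glia opsin, Edn3, an endothelin, Pmel, the melanosome protein, Serpine3 and Adamts19 (log2 fold changes -2.47, -2.43, -2.39, -2.09 and -2.25). Of 12 RPE markers Pmel alone passed the test, and the list's median was -1.23. In batch 1, 8 of the 12 were lower and 0 higher (median -1.40). The list's summed level in batch 2 ran from 362 to 1352 CPM in PBS retinas and from 36.6 to 775 CPM in IL1A+TNF retinas. Without mouse 62224 0 of the 12 passed (Pmel FDR = 0.055), and without mouse 61719 2 did. The call of Edn3 was lost without mouse 61720 or 62224, without the 2 retinas holding lens RNA, with mouse as a fixed factor over the 5 paired mice, by edgeR and by DESeq2 (FDR 0.052 to 0.21). The part of RPE RNA in the values of these genes was not tested.

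In batch 1, 9852 of 19548 genes tested were DEGs (50.4%), 24.9% higher and 25.5% lower. Of 18813 genes tested in both batches, 9749 were DEGs in batch 1 and 7108 in batch 2, and 6414 were DEGs in both, which is 65.8% of the batch 1 list and 90.2% of the batch 2 list. All 6414 had the same direction (3395 higher, 3019 lower) and 0 had opposite directions by limma, edgeR or DESeq2. Leaving out mouse 61722 gave 2 genes of opposite direction, and weighting retinas by quality gave 1. The shared count was 5255 without the 2 retinas holding lens RNA, with 0 in opposite directions, and 4484 without mouse 61720.

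**Figure D1:**
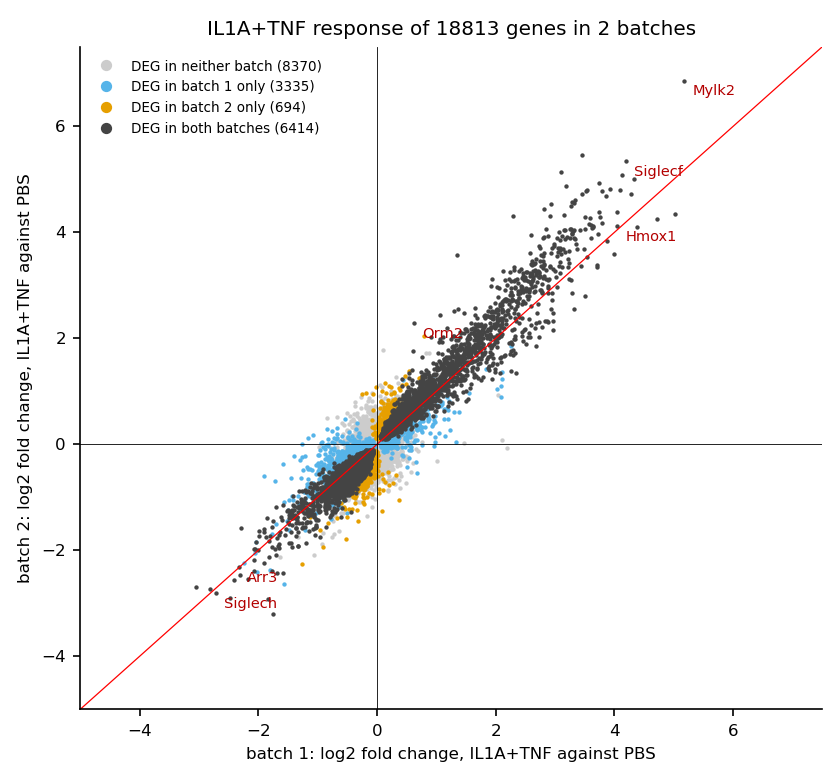
Log2 fold change of IL1A+TNF against PBS in batch 1 (horizontal) and batch 2 (vertical) for the 18813 genes tested in both, one point per gene, coloured by where the gene was a DEG. The red line marks equal values; the 6414 genes that were DEGs in both batches lie at lower left and upper right of the zero lines, and none at upper left or lower right.

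Large changes recurred most often. Among batch 1 DEGs that changed by 2 or more on the log2 scale, 361 of 371 (97.3%) were DEGs in batch 2 and 371 had the same direction. The share was 89.1% for changes of 1 to 2, 71.8% for 0.5 to 1, 74.1% for 0.25 to 0.5 and 51.5% for those under 0.25. The 3335 genes called in batch 1 only had small changes in both batches (median absolute log2 fold change 0.18 and 0.15) and 95.7% of them kept their direction. The 694 genes called in batch 2 only had a median of 0.40 in batch 2 and 0.12 in batch 1. Across genes, which are not independent replicates, log2 fold changes of the batches had Pearson's r of 0.937. The slope of batch 2 on batch 1 was 1.09 over the DEGs of batch 1, and that of batch 1 on batch 2 was 0.825 over the DEGs of batch 2.

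The difference between the responses was also fitted directly, over 52 retinas of 39 mice. No gene of 19922 differed at an FDR under 0.05 (smallest FDR 0.106) and 1186 had an unadjusted p under 0.05 (5.95%). edgeR gave 0 genes (931 at an unadjusted p under 0.05) and DESeq2 gave 1, Orm2 (958). Among genes averaging at least 1 CPM, the 95% interval of the difference lay within 1 log2 unit of 0 for 96.6% and within 0.5 for 78.4%, so that moderate differences could not be seen for every gene. The smallest p belonged to Mthfsl, Rab3il1, Orm2, Slc5a7 and Mthfs, none past the threshold.

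Orm2, an acute-phase glycoprotein, showed the widest gap of these. It was at 0.758, 0.481, 0.502, 0.736 and 0.647 CPM in PBS retinas and at 2.18 to 4.32 CPM (median 2.97) in IL1A+TNF retinas. The log2 fold change was 2.29 in this batch and 0.63 in batch 1. The difference, estimated in the joint fit and so not exactly their subtraction, was 1.61 (95% interval 0.92 to 2.30, FDR = 0.13). For Rab3il1, a Rab exchange factor, the values were 1.00 and 0.60, and for Slc5a7, the choline transporter of cholinergic amacrine cells, -0.57 and -0.11. Mthfsl and Mthfs are close copies of one folate enzyme gene, and reads could have been split between them, so their values are uncertain.

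Genes of IL1 and TNF signalling rose together: 18 of 22 were higher and 0 lower, with a median log2 fold change of 1.02 (0.92 in batch 1). Il1b, which encodes the ligand IL1 beta, showed the largest change. It was at 1.74, 0.677, 0.836, 2.90 and 0.941 CPM in PBS retinas and at 10.1 to 36.8 CPM (median 22.6) in injected retinas. The groups did not overlap (log2 fold change 3.91, SE 0.46, FDR = 1.1e-04). Tnf itself went from at most 0.255 CPM to 0.687 to 2.21 CPM (2.98), and Il1a rose by 0.69.

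The receptors rose unequally. Tnfrsf1b, the inducible TNF receptor, was at 9.09, 8.07, 5.78, 7.94 and 6.72 CPM in PBS retinas and at 30.2 to 57.6 CPM (median 34.0) in injected ones (log2 fold change 2.21, FDR = 1.4e-05). The constitutive receptor Tnfrsf1a rose by 0.98. Il1r2, the decoy that binds IL1 without signalling, rose by 3.88, from at most 1.07 CPM to at least 5.48 CPM. The signalling receptor Il1r1 rose by 0.33 with overlapping groups, and its accessory chain Il1rap by 0.19. Il1rn, the receptor antagonist, rose by 1.27 with overlap.

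Below the receptors, Birc3, a ubiquitin ligase induced by NF-κB, rose by 2.16, Irak3, an inhibitory IRAK, by 1.83, Irak4 by 1.19 and Myd88 by 1.05. Traf6, Birc2, Map3k7 and Tradd did not pass the test (log2 fold changes 0.09, -0.03, 0.02 and 0.31). Of 14 NF-κB genes, 11 were higher and 1 lower (median 0.51, batch 1 0.37). Ikbke, an inducible IκB kinase, and Bcl3, an atypical IκB protein, rose most (2.41 and 2.39).

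Nfkb2 and Nfkbia, whose promoter matches are printed above, are a subunit and the inhibitor that NF-κB induces. Nfkb2 was at 8.24, 6.77, 5.40, 6.04 and 8.46 CPM in PBS retinas and at 13 to 21.9 CPM (median 14.6) in IL1A+TNF retinas, without overlap (1.13, FDR = 2.8e-04). Nfkbia went from 23.8, 24.3, 24.3, 19.3 and 22.4 CPM to 28.3 to 40.2 CPM (median 35.5; 0.58, FDR = 0.0010). Tnfaip3, the deubiquitinase A20 that ends NF-κB signalling, moved the other way. Its PBS values were 228, 289.9, 318, 289.5 and 183 CPM, its IL1A+TNF values 83.8 to 157 CPM (median 115), and all injected retinas lay below all controls (log2 fold change -1.19, FDR = 3.2e-04; batch 1 -1.20).

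Chemokine genes followed, with 11 of 17 tested members higher and 0 lower, and Cxcl9 and Cxcl11 below the filter on counts. Ccl6, a myeloid chemokine, was at 4.37, 1.94, 1.22, 2.99 and 2.23 CPM in PBS retinas and at 25.1 to 109 CPM (median 43.0) in IL1A+TNF retinas (4.04, FDR = 4.9e-05). Ccl3 rose by 3.10, Ccl4 by 2.48, Ccl2, which draws monocytes, by 2.45, and Cxcl1 and Cxcl2, which draw neutrophils, by 1.99 and 3.58, the last with overlap. The list's median was 1.65, against 0.76 in batch 1, and the difference between batches had an unadjusted p under 0.05 for 3 members and an FDR under 0.05 for 0. Cxcl10, with ISRE and NF-κB matches in its promoter, was at 1.39, 0.766, 1.77, 0.535 and 1.39 CPM in PBS retinas and at 0.499 to 4.58 CPM (median 2.35) in injected retinas. Its groups overlapped widely (0.82, FDR = 0.23). Of 12 endothelial adhesion genes, 9 rose, among them Selp, P-selectin (2.72), and Icam1 (1.12), and 1, Jam2, fell (-0.31).

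Genes of the IL6 family and its STAT3 pathway rose in 11 of 15 cases with 0 lower (median 1.28, batch 1 0.98). The receptor Il6ra rose by 2.82, the shared chain Il6st by 0.53, Stat3 by 0.80 and the transcription factors Cebpb and Cebpd by 2.03 and 1.43. Socs3, the feedback inhibitor with a GAS match in its promoter, was at 25.5, 17.2, 20.7, 18.9 and 43.4 CPM in PBS retinas and at 41.7 to 121 CPM (median 90.9). The 2 lowest injected retinas, at 41.7 and 43.0 CPM, were just below the highest control (1.66, FDR = 0.0033). The acute-phase genes Hp, Lrg1 and Saa3 rose by 3.70, 1.28 and 2.05. The ligands Il6, Il11, Lif and Cntf did not pass the test (1.29, -0.10, 0.65 and 0.62).

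Most genes of each reactive astrocyte list were higher. In the pan-reactive list 9 of 13 rose and 0 fell (median 1.14), in the A1 list 9 of 11 rose (median 1.23) and in the A2 list 10 of 11 rose (median 1.05). Of 6 general astrocyte markers, 3 were higher and 1 lower (median 0.31), and in batch 1 3 were higher and 3 lower. Which cells gave the values of these lists was not tested. Lcn2, a secreted iron-binding lipocalin, was at 150.4, 78.4, 38.4, 122 and 119 CPM in PBS retinas and at 515 to 742 CPM (median 607) in IL1A+TNF retinas. All injected retinas were well above the controls, which themselves spread over several fold (2.67, SE 0.27, FDR = 3.9e-05; batch 1 1.99). Gfap, the intermediate filament of astrocytes and stressed Müller glia, was at 98.2, 58.7, 90.2, 51.0 and 121 CPM and then at 162 to 362 CPM (median 255; 1.69, FDR = 3.5e-04).

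Cp, the ferroxidase ceruloplasmin, rose by 1.52, Cd44 by 2.04, Timp1 by 2.01 and Vim by 1.14. Serpina3n, often used as a marker of reactive astrocytes, was at 896, 899, 382, 1317 and 703 CPM in PBS retinas and at 212 to 1918 CPM (median 1136) in IL1A+TNF retinas. Both ends of the injected group lay outside the PBS range, and the test was not passed (0.27, FDR = 0.69). Among A1 genes, Srgn (2.55), H2-D1 (1.97) and Ggta1 (1.55) rose, and among A2 genes Cd14 (1.97) and Tgm1 (1.31) rose.

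**Figure D2:**
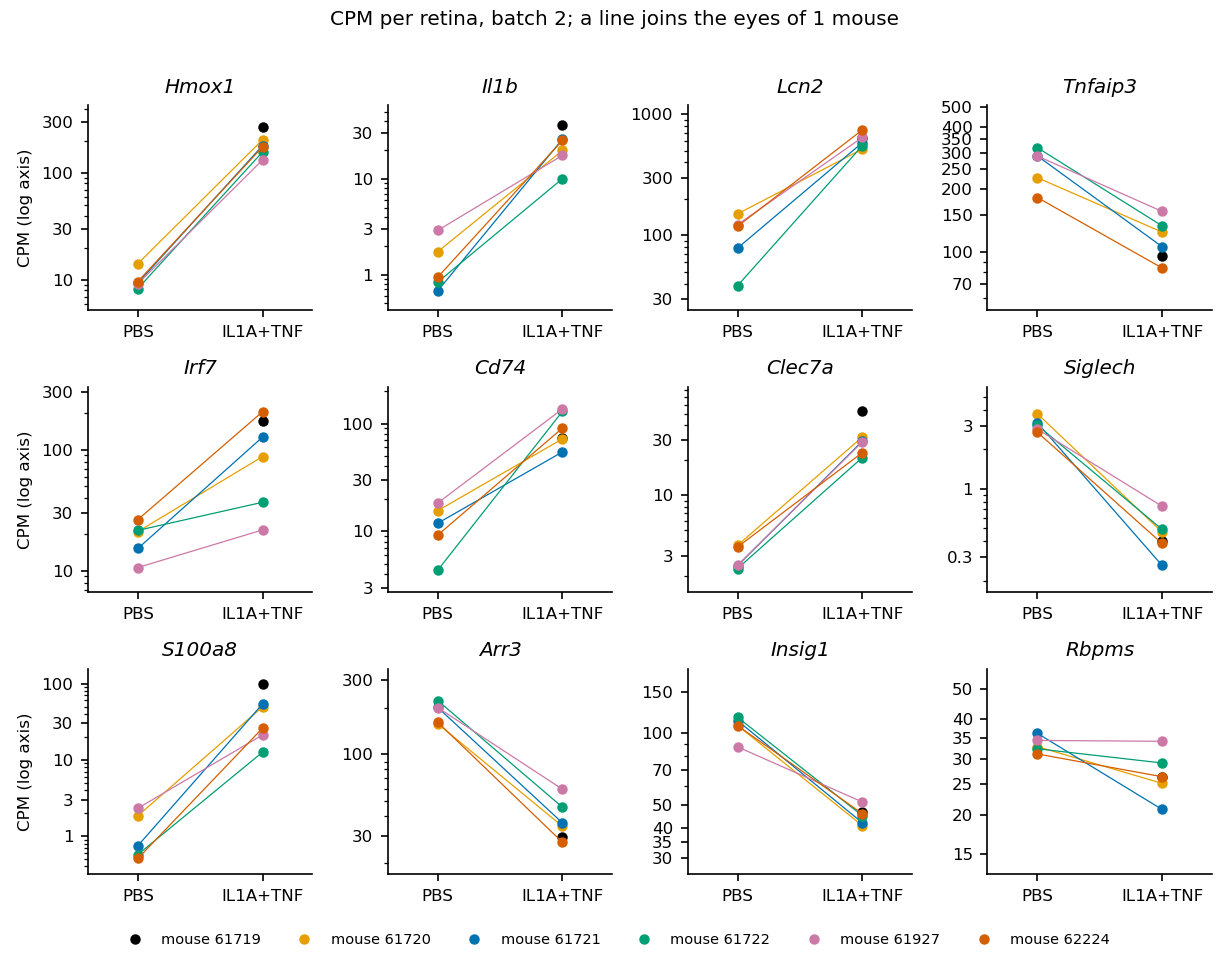
CPM of 12 genes in the 11 retinas of batch 2 (vertical, log axis), PBS at left and IL1A+TNF at right, one colour per mouse, with a line joining the eyes of the 5 mice that gave both. Hmox1 rose from 8.34 to 14.2 CPM in PBS retinas to 133 to 268 CPM after IL1A+TNF, Siglech, Arr3 and Tnfaip3 fell in all 5 mice, and Irf7 spread from 21.8 to 207 CPM among the injected retinas.

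Interferon-stimulated genes were higher but uneven between mice. Of 24 type I interferon genes 20 were higher and 0 lower (median 1.61, batch 1 1.81), and 14 were higher without mouse 62224 and also without the 2 retinas holding lens RNA. Irf7, the factor that amplifies the interferon response, was at 21.1, 15.3, 21.6, 10.7 and 26.5 CPM in PBS retinas. Among IL1A+TNF retinas it was 173 CPM in mouse 61719, 88.1 in 61720, 128 in 61721, 36.9 in 61722, 21.8 in 61927 and 207 in 62224. The retina of 61927 stayed inside the PBS range and was still above its own PBS eye, as in all 5 pairs (2.18, SE 0.61, FDR = 0.016). The call for Irf7 was lost without mouse 61720, 61721 or 62224 (FDR 0.051 to 0.057) and without the 2 retinas holding lens RNA (FDR 0.057).

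Ifit2 rose without overlap, from 25.6, 22.2, 22.1, 21.6 and 24.4 CPM in PBS retinas to 50.5 to 87.5 CPM (median 69.2) in injected ones (1.54, FDR = 1.2e-05). Ifit3, with 2 ISRE matches in its promoter, was at 37.6, 34.6, 38.8, 24.3 and 23.5 CPM and then at 35.0 to 111 CPM (median 62). Its groups overlapped by the retina of mouse 61927 (0.99, FDR = 0.026), and the call was lost without mouse 61721 or 62224 and without the 2 retinas holding lens RNA (FDR 0.072 to 0.11). Isg15, a ubiquitin-like modifier, went from 3.39, 2.46, 3.99, 1.54 and 1.55 CPM to 2.53 to 6.43 CPM (median 4.47) and did not pass the test (0.74, FDR = 0.085). Ifitm3 did not pass it either (0.36, FDR = 0.097).

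The interferon gamma and antigen presentation list was higher throughout, 23 of 23 tested members, with a median of 1.97 (batch 1 2.45) and 22 of 23 without the 2 retinas holding lens RNA. Irf1, an interferon-induced transcription factor with a GAS match in its promoter, was at 11.3, 9.84, 10.6, 9.54 and 12.1 CPM in PBS retinas and at 17.5 to 65.6 CPM (median 32.3; 1.62, FDR = 0.0044). Nlrc5, which activates MHC class I genes, rose by 3.11, the peptide transporter Tap1 by 2.85 and the class I genes H2-K1 and H2-D1 by 1.34 and 1.97. Cd74, the class II invariant chain, was at 15.5, 11.9, 4.35, 18.3 and 9.21 CPM in PBS retinas and at 54.5 to 136 CPM (median 81.6; 2.94, FDR = 9.2e-05). Its order among mice was not that of Irf7, since mouse 61927 had the highest injected Cd74 value and the lowest Irf7 value.

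Most genes of activated microglia and macrophages were higher. In whole-retina RNA, more or fewer cells of a type and more or less RNA per cell cannot be told apart. In the list for disease-associated microglia 15 of 20 were higher and 1 lower (median 0.97, batch 1 0.94). Clec7a, the receptor dectin 1 of activated microglia and myeloid cells, was at 3.71, 2.48, 2.34, 2.5 and 3.59 CPM in PBS retinas and at 21.1 to 53.5 CPM (median 29; 3.29, FDR = 7.7e-06). Batch 1 gave 2.30 and the difference was 1.00 (95% interval 0.33 to 1.67), not past the threshold (FDR = 0.83).

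Trem2, a lipid receptor of microglia, rose by 1.94, its adaptor Tyrobp by 3.22, Itgax by 3.03, Cd68 by 2.34 and Spp1, osteopontin, by 2.36. Cst7 and Lpl, other genes of that state, did not pass the test (0.19 and 0.13), and Igf1 fell (-0.60). Among 13 homeostatic genes, 7 were higher, including Csf1r (1.45) and Cx3cr1 (0.87), Siglech was lower, and Tmem119 and P2ry12 did not pass the test (-0.19 and 0.26). Of 18 complement genes 12 rose, led by Itgb2 (3.18), C5ar1 (3.16) and C3ar1 (2.72), with C1qa at 1.41 and C3 at 1.93, and C4b fell (-0.63).

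Genes of blood leukocytes were among the most changed. Of 12 neutrophil markers 9 were tested, 7 of them higher. Ly6g, Ngp and Elane were below the filter, and Ly6g and Elane, defining markers of mature and immature neutrophils, stood between 0 and 0.0954 CPM in the 11 retinas. S100a8 was at 1.85, 0.748, 0.573, 2.32 and 0.509 CPM in PBS retinas. In IL1A+TNF retinas it was highest in mouse 61719 (97.6 CPM) and lowest in mouse 61722 (12.6 CPM), with a median of 37.8 and no overlap with PBS (4.81, FDR = 0.0012; batch 1 3.92). Csf3r, the receptor of the neutrophil growth factor, rose by 4.78. Mmp9, the gelatinase of neutrophils and glia, rose by 3.35 in this batch and by 2.30 in batch 1, a difference of 1.05 (95% interval 0.47 to 1.63, FDR = 0.83).

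Of 12 monocyte and macrophage genes 11 were tested, 10 of them higher, and Ly6c2 was below the filter. Lyz2, the myeloid lysozyme, was at 60.1, 36.0, 12.1, 34.6 and 27.9 CPM in PBS retinas and at 327 to 639 CPM (median 402), without overlap (3.69, FDR = 4.2e-06). Arg1, arginase, rose by 4.38, Ccr2, the receptor for Ccl2, by 3.89 and Chil3 by 4.10. T cell and natural killer cell genes were barely present: 3 of 11 were tested and 0 passed.

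Genes of iron handling were mostly higher. Of 20 iron, heme and NRF2 genes 14 were higher and 1 lower (median 0.57). The ferritin chains Ftl1 and Fth1 rose by 1.58 and 0.85, the iron exporter Slc40a1 by 1.49 and the metallothioneins Mt1 and Mt2 by 0.81 and 1.20. Tfrc, the transferrin receptor that takes iron up, was the member that fell, from 222, 219, 229.8, 189 and 192 CPM to 121 to 167 CPM (median 131; -0.64, FDR = 3.1e-04). Nrf1, a transcription factor of mitochondrial genes, did not pass the test (-0.07, FDR = 0.22), and Nqo1 and Gclc, classical NRF2 targets, did not either (-0.14 and 0.10).

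AP-1 and immediate early genes were higher in 11 of 14 cases. Jun, whose product is a mediator of RGC death after axon injury, was at 51.3, 41.5, 48.9, 43.2 and 55.7 CPM in PBS retinas and at 58.5 to 109 CPM (median 83.6), without overlap (0.70, FDR = 0.0043; batch 1 0.68). Egr2 rose by 3.12, Batf by 2.48, Atf3 by 1.42 and Junb by 1.20, and Fos did not pass the test (0.23). Of 14 axon injury genes 8 rose, among them the neuropeptide Gal (1.70), Ecel1 (1.70), Cdkn1a (1.42) and Sox11 (1.17), and Gap43 and Ddit3 did not pass the test (0.24 and 0.18).

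Genes of lytic cell death were mostly higher. In the necroptosis list 7 of 10 rose, including Ripk3 (1.56), its effector Mlkl (1.53) and the brake Casp8 (1.31). Of 10 inflammasome genes 9 were higher, including Nlrp3 (2.90), Nlrc4 (2.73), Gsdmd, the pore protein of pyroptosis (1.70), and Casp1 (1.65), while Il18 did not pass the test (0.03, FDR = 0.87). Many of these genes are also expressed by myeloid cells, whose markers rose in the same retinas, and their part in these values was not tested.

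In the BCL2 family and caspases 11 of 20 rose and 3 fell, where 19.6% of all genes tested were higher and 18.1% lower. The count of lower genes was not above that share. Pmaip1, the BH3-only protein NOXA, was at 1.29, 1.10, 1.36, 0.914 and 0.784 CPM in PBS retinas and at 6.63 to 14.2 CPM (median 8.64; 3.01, FDR = 2.5e-05; batch 1 2.19). Bcl2l11, the BH3-only protein BIM, rose by 0.66, and the survival genes Mcl1 and Bcl2a1b by 0.76 and 2.72, the last a member of a family of near-identical copies, so that its reads are uncertain. Bcl2 fell by 0.51 on the log2 scale.

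Sarm1, the NADase of axon degeneration, was at 108, 112, 126, 125 and 106 CPM in PBS retinas and at 85.5 to 111 CPM (median 99.6) after IL1A+TNF. The groups overlapped slightly and each injected eye was below its PBS fellow (-0.24, SE 0.07, FDR = 0.023; batch 1 -0.27), and the call was lost without mouse 61927 (FDR = 0.085). Nmnat2, the axonal NAD synthase that restrains SARM1, fell by 0.49, and Cd38, another NADase, rose by 1.85. Of 11 genes of the SARM1 and NAD list 5 were higher and 2 lower, where 19.6% of all genes tested were higher and 18.1% lower. The count of lower genes was near that share.

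Most genes of cholesterol synthesis and uptake were lower. Of 17 cholesterol genes 15 were lower and 1 higher (median -0.58, batch 1 -0.50), also without the 2 retinas holding lens RNA. Insig1, the sterol sensor that is itself a target of SREBP2, was at 108, 113, 117, 87.7 and 108 CPM in PBS retinas and at 40.9 to 51.4 CPM (median 45.5), without overlap (-1.24, FDR = 4.2e-06). Hmgcs1, an early enzyme of the pathway, fell by 0.91. The exporter Abca1 was the member that rose, from 73.4, 84.5, 86.1, 91.8 and 73.6 CPM to 153 to 217 CPM (median 174; 1.10, FDR = 1.6e-05).

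Glycolysis genes fell in 19 of 22 cases (median -0.55, batch 1 -0.49). Pfkp, a phosphofructokinase, was at 745, 669, 758, 691 and 807 CPM in PBS retinas and at 340.3 to 456 CPM (median 395; -0.88, FDR = 1.9e-05), Slc16a3, a lactate exporter, fell by 0.91 and Hk2 by 0.73. Hk1, the other hexokinase, was the member that rose (0.30). Of 16 circadian genes 10 were lower and 0 higher, led by Rorb, a nuclear receptor of photoreceptors and interneurons (-0.70).

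Photoreceptor genes were lower after IL1A+TNF. In the rod list 14 of 16 fell and 0 rose (median -0.52, batch 1 -0.62), and 14 fell without the 2 retinas holding lens RNA. Gnat1, rod transducin, was at 9575, 10203, 10526, 10687 and 8082 CPM in PBS retinas and at 4882 to 7730 CPM (median 6500), without overlap (-0.64, SE 0.11, FDR = 0.0011). Nrl, the rod fate factor, fell by 0.76, while Sag, rod arrestin, did not pass the test (0.09).

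Among cone genes 8 of 10 were lower (median -0.71). Arr3 was at 157, 200.4, 222, 200.04 and 161 CPM in PBS retinas and at 27.2 to 59.7 CPM (median 35.4; -2.32, SE 0.18, FDR = 8.9e-06), with -2.33 in batch 1. Opn1sw, the short-wavelength opsin, fell by 1.74 and Opn1mw by 1.15. Gnb3, a G protein subunit shared by cones and bipolar cells, rose, from 506, 384, 462, 318 and 551 CPM to 651 to 937 CPM (median 858; 0.91, FDR = 4.2e-04; batch 1 0.70).

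Genes of inner retinal neurons were also lower. In the bipolar list 10 of 12 fell (median -0.64), in the amacrine and horizontal list 12 of 13 (median -0.46) and in the RGC list 14 of 20 (median -0.39, batch 1 -0.26), with 0 higher in each. Rbpms, an RNA-binding protein of RGCs, was at 32.8, 36.1, 32.3, 34.3 and 31.1 CPM in PBS retinas and at 20.7 to 34.1 CPM (median 26.3). The injected retina of mouse 61927 was inside the PBS range (-0.33, SE 0.10, FDR = 0.020). The call was lost with mouse as a fixed factor over the 5 paired mice (FDR = 0.056) and without mouse 61720, 61721 or 62224 (FDR 0.053 to 0.069).

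Chrna6, a nicotinic receptor subunit of RGCs, changed most in that list, from 85.0, 89.5, 88.7, 78.5 and 74.2 CPM to 23.2 to 54.2 CPM (median 41.9; -1.08, FDR = 6.0e-04). Tubb3 fell by 0.38 (FDR = 0.022; batch 1 -0.13), with its lowest value, 40.7 CPM, in mouse 61721, and the call was lost without mouse 61720, 61722 or 61927 (FDR 0.053 to 0.060). Without mouse 61720, 6 of the 20 RGC genes and 5 of the 13 amacrine and horizontal genes were lower, against 14 and 9 without the 2 retinas holding lens RNA. Over all genes tested, 3424 of 18920 were lower with all retinas, 2074 of 19071 without mouse 61720 and 2684 of 18973 without those 2 retinas.

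Transmitter receptor and channel genes showed the same direction. Of 32 GABA, glycine and glutamate receptor genes 28 were lower and 0 higher, with 19 lower without mouse 61720 and 23 without the 2 retinas holding lens RNA. Gabra4, a GABA-A subunit, fell by 1.00, Grm8 and Grm6, metabotropic glutamate receptors, by 0.73 and 0.71, and Gria2 by 0.69, while Gria1 did not pass the test (0.07). Among sodium, calcium and HCN channels 19 of 22 fell, led by Scn4b (-1.43), with 10 without mouse 61720, 12 without mouse 62224 and 14 without the 2 retinas holding lens RNA. Potassium channels fell in 15 of 21 cases, and in 10 without mouse 61720 or 61927, while the glial channel Kcnj10 rose (0.62). Synaptic vesicle genes fell in 17 of 25 cases, led by Rims1 (-0.88), and in 11 without mouse 61719. Over all genes tested, 3424 of 18920 were lower with all retinas and 2074 of 19071 without mouse 61720. The counts were 2767 of 18792 without mouse 61719, 2899 of 18992 without 61927 and 2639 of 18956 without 62224.

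The receptor list had a median of -0.53 here and -0.27 in batch 1. The difference between batches had an unadjusted p under 0.05 for 15 of 32 receptor genes, against 5.95% of all genes, with 0 past the FDR threshold. The same held for 7 of 13 amacrine and horizontal genes, 8 of 22 sodium, calcium and HCN channels and 6 of 21 potassium channels. It held for 6 of 25 synaptic vesicle, 3 of 12 bipolar and 4 of 20 RGC genes, and for 0 of 16 rod and 1 of 10 cone genes. Among IL1A+TNF retinas, that of mouse 61721 held the lowest value for 27 of the 32 receptor genes (and for 19 of the 20 RGC genes) and also held lens RNA, whose part in these values was not tested. Without the 2 retinas holding lens RNA the median of the receptor list was -0.39, and 596 of 20100 genes had an unadjusted p under 0.05 for the difference between batches.

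Müller glia genes divided. Of 12, 6 rose and 4 fell. Glul, glutamine synthetase, was at 1655, 2166, 1988, 2022 and 1233 CPM in PBS retinas and at 658 to 1063 CPM (median 811; -1.18, FDR = 1.4e-04), and Rlbp1, the retinaldehyde-binding protein, fell by 0.83. Slc1a3, the glutamate transporter, rose by 0.41 and Sox9 by 0.52. Ribosomal protein genes rose in 27 of 30 cases with a median of 0.37 (0.19 in batch 1), in 17 without mouse 62224 and in 18 without the 2 retinas holding lens RNA. Over all genes tested, 3711 of 18920 were higher with all retinas, 2870 of 18956 without mouse 62224 and 2914 of 18973 without those 2 retinas.

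**Figure D3:**
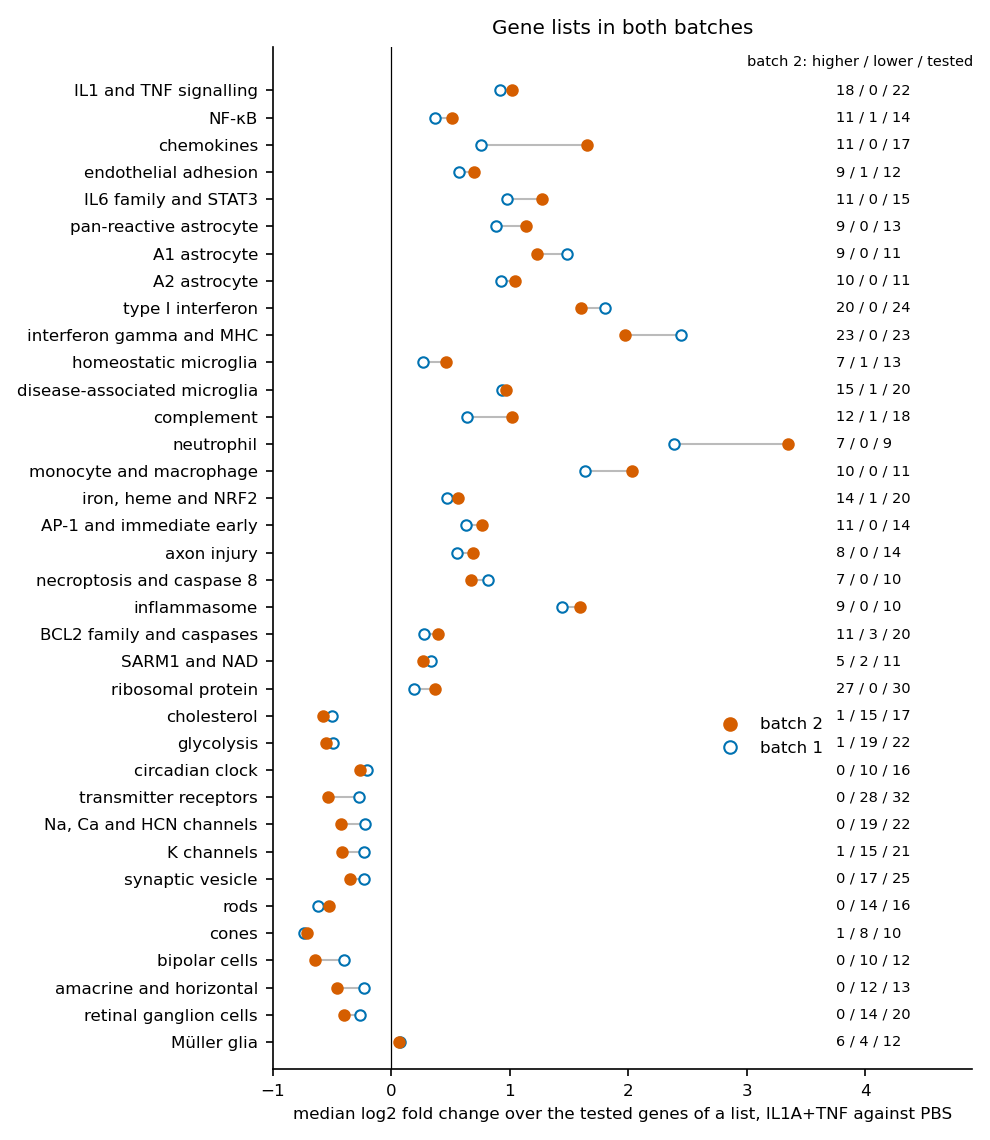
Median log2 fold change of IL1A+TNF against PBS over the tested genes of 36 lists (horizontal), filled orange for batch 2 and open blue for batch 1, with the batch 2 counts of genes higher, lower and tested at right. The medians of both batches lie on the same side of 0 in each list, with neutrophil genes at 3.35 and 2.38 and transmitter receptors at -0.53 and -0.27.

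Without the 2 retinas holding lens RNA, the number of genes higher was 16 for IL1 and TNF signalling, 11 for NF-κB, 11 for chemokines, 7 for endothelial adhesion and 10 for the IL6 family. It was 10, 9 and 9 for the pan-reactive, A1 and A2 lists, 16 for disease-associated microglia, 12 for complement, 7 for neutrophils and 9 for monocytes. It was 13 for iron, 10 for AP-1, 7 for axon injury, 6 for necroptosis, 9 for inflammasomes, 11 for the BCL2 family, 5 for SARM1 and NAD and 5 for Müller glia. The number lower was 18 for glycolysis, 9 for circadian genes, 8 for cones, 10 for bipolar cells, 11 for potassium channels and 15 for synaptic vesicles.

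The 6 injected retinas differed among themselves in how far they moved. As a summary, each retina was scored by the mean log2 CPM of a list less the mean of the PBS retinas. Over the batch 1 DEGs that rose, injected retinas scored 0.52 to 0.94, lowest in mouse 61722 and highest in mouse 61719, against -0.12 to 0.10 in PBS retinas. Over those that fell, they scored -0.51 to -0.25 against -0.05 to 0.04. Both ranges were clear of PBS in each of the 6 retinas.

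The order of retinas depended on the list. Mouse 61719 scored highest for neutrophil genes (4.15), monocyte genes (3.13) and genes of disease-associated microglia (1.97). Mouse 62224 scored highest for the interferon lists (2.17 for type I, 2.56 for interferon gamma), where mouse 61927 scored lowest (0.52 and 1.38). Mouse 61721 scored lowest for RGC (-0.96), bipolar (-1.05) and receptor genes (-1.01). Cholesterol genes spread little, from -0.66 to -0.45.

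**Figure D4:**
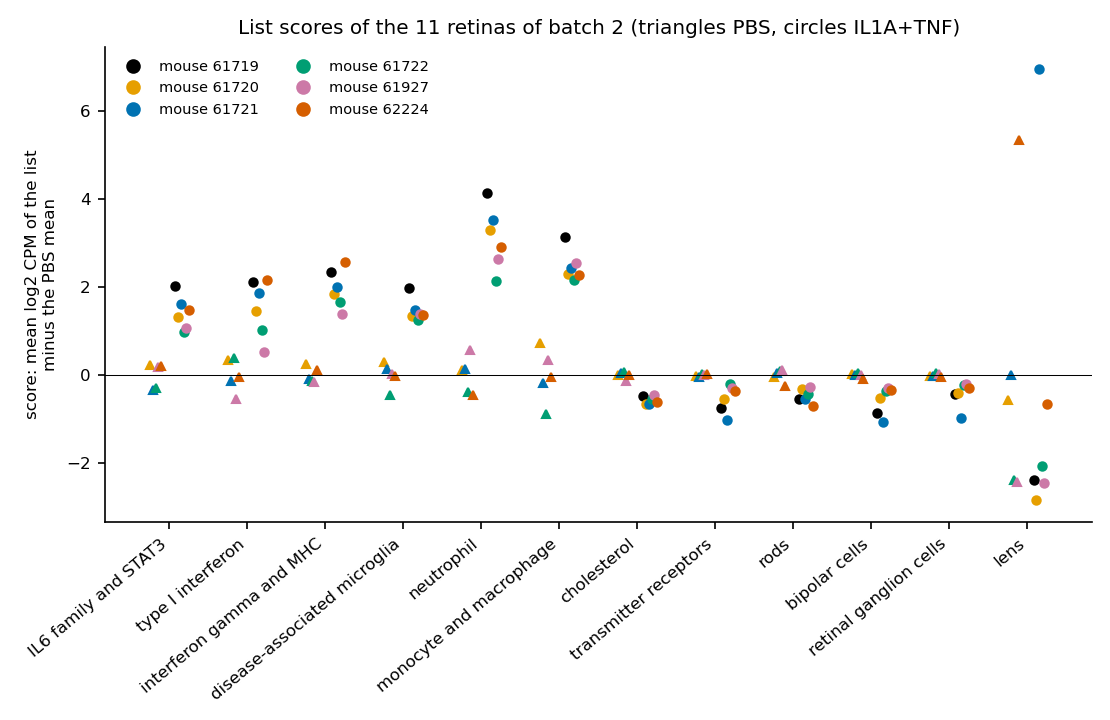
List scores (mean log2 CPM of the list minus the mean of the 5 PBS retinas, vertical) for the 11 retinas of batch 2, triangles for PBS and circles for IL1A+TNF, one colour per mouse. Type I interferon scores spread from 0.52 to 2.17 among injected retinas, cholesterol scores from -0.66 to -0.45, and lens scores stand out in mouse 61721 (6.96, IL1A+TNF) and mouse 62224 (5.35, PBS).

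Between the PBS retinas of the batches, 3119 of 19922 genes had an unadjusted p under 0.05 by limma (15.7%). At an FDR under 0.05 there were 388 genes (1.95%), 203 higher and 185 lower in batch 2. The count of 388 ranged from 101 to 421 when a mouse was left out and was 255 by edgeR. Among the gene lists, genes encoded by mitochondrial DNA had 3 of 13 tested members among these genes, cholesterol 3 of 17 and the BCL2 family and caspases 2 of 20, and receptors, rods, RGC, type I interferon and neutrophil genes had 0. Batch, labelled only by its number, and everything that went with it, including the depth of sequencing, cannot be told apart. Thinning the counts of batch 2 to the median total of batch 1 left 6874 DEGs and 0 genes that differed between batches.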

How the data were processed

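RNA-seq counts per gene of whole mouse retinas were used as the authors deposited them: per the labels and the study's methods, reads were aligned to the mouse genome mm10 with STAR 2.7.9a and counted over GENCODE M21 genes with featureCounts of Subread 2.0.1. Each retina is its own library and no column was pooled. Groups, batch, sex and mouse were taken from the labels.

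Batch 2 was fitted with limma 3.58.1 (voom) in R 4.3.3 on the 11 retinas, with TMM scaling from edgeR 4.0.16, genes kept by a minimum count of 10 (18920 genes), treatment and sex as terms and mouse as a replicate block through an estimated correlation (0.106). Batch 1 (58 retinas, those of either cytokine alone included) and, over 52 retinas, the difference between the batches were fitted in the same way. FDR is the Benjamini-Hochberg value over all genes tested. The eyes of 1 mouse are paired by the labels, and the correlation of their deviations from the group means was 0.213, -0.045, 0.274, 0.250 and 0.142 for the 5 mice. CPM values used TMM factors over the 52 retinas, and list scores used log2 CPM with a prior count of 2. No 2 retinas of a group were the same library deposited under 2 names (chi-square per gene at least 21.9). The batch 2 fit was tested on counts simulated for its 11 retinas, with far fewer genes changed than in the data. The batch 1 fit and the joint fit were not tested in this way.

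Named genes were, among DEGs with a mean of at least 1 CPM, the 5 with the smallest FDR and the 10 largest changes in each direction, the 5 smallest p of the difference, the leading members of each gene list, other list members at their list, and genes the study's text names. The comparison, its members and the gene lists were chosen with earlier results of these data known. Alternatives were edgeR and DESeq2 1.42.0, other size factors, filters, no sex term, no or a fixed replicate block, quality weights, thinned counts, other sets of retinas and each mouse left out. The fixed block used only the 5 mice that gave both eyes. A few genes are not reported here.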

Additional observations from a re-analysis of the deposited data

Results flagged for a closer look

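Of 86 sets of values for named genes and 94 for list scores, each over 5 or 6 retinas, 10 held 1 retina farther from the rest than Dixon's 95% criterion allows, and chance flags about 1 in 20 such sets.

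Among IL1A+TNF retinas, that of mouse 61721 appeared most often. There the lens score was 6.96, with the next at -0.65, the RGC score was -0.96, with the next at -0.42, and Tubb3, a neuronal tubulin, was at 40.7 CPM, with the next at 60.0 CPM. In mouse 61719 the score for disease-associated microglia was 1.97, with the next at 1.48. In mouse 61927, Cst7, a cystatin of activated microglia, was at 0.275 CPM, with the next at 0.491 CPM.

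Among PBS retinas, Hmox1 stood at 14.2 CPM in mouse 61720, with the next at 9.70 CPM, and Tubb3 at 87.7 CPM in mouse 62224, with the next at 75.6 CPM. In mouse 61722, Sirpb1b was at 0 CPM, with the next at 0.143 CPM, and Adamts19, a secreted metalloprotease, at 0.836 CPM, with the next at 2.10 CPM. The B cell score was 0.40 in mouse 61721, with the next at -0.03. The PBS retina of mouse 62224 held lens RNA and that of mouse 61722 did not, and the part of lens RNA in these values was not tested.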

How the results depend on the processing

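The batch 2 count of 7135 DEGs fell to 4110 with Sarm1-/- retinas of the batch in the fit and to 3946 at an FDR under 0.01, and ran from 4749 (without mouse 61720) to 6501 when a mouse was left out. It was 6738 with no replicate block and 5629 with mouse as a fixed replicate block, and between 5598 and 8989 under the other settings. The fixed block used only the 5 mice with both eyes, and leaving out mouse 61719 alone gave 5948. The shared count of 6414 fell to 3724 at an FDR under 0.01 and otherwise stayed between 4484 and 7474. The difference between batches gave 0 genes, except 1 (Orm2) by DESeq2 and 1 (Mthfsl) without mouse 61722, so 0 to 1 with a mouse left out. The PBS count of 388 was 255 by edgeR and 101 to 421 with a mouse left out (126 without 61720, 101 without 61721, 127 without 61927). The causes were not tested.

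Over all settings, 1826 values of single genes kept direction and side of the threshold, 49 lost the call (19 of them with Sarm1-/- retinas in the fit), 4 gained it and 8 changed sign, none of these 8 a call. Bfsp2, a lens gene at -0.27, was 0.44 by edgeR, 0.40 by DESeq2, 0.43 with mouse as a fixed replicate block and -0.94 to 0.37 with a mouse left out. Crygs, a lens crystallin at 0.93, was -0.056 with quality weights and -1.98 to 4.20 with a mouse left out, and Cst7, at 0.19, was -0.015 with quality weights. With Sarm1-/- retinas in the fit the calls lost included Jun (FDR = 0.058), Gal (0.072), Scn4b (0.082), Cdkn1a (0.10), Chrna6 (0.13), Gabra4 (0.14), Sarm1 (0.15) and Rims1 (0.15).

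The 11 retinas resolved a median standard error of 0.10 on the log2 scale, so that small changes of batch 1 could be missed. Retinas came from 6 mice, and p-values measure the spread between these. Batch, mice and sequencing depth changed together and cannot be told apart.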

Other observations

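Cell cycle genes were measured in all retinas and are not described above. Of 18, 5 were higher and 0 lower (median log2 fold change 0.58), where 19.6% of all genes tested were higher. Without mouse 61927 or 62224, 2 were higher, where 3236 of 18992 and 2870 of 18956 genes tested were higher. Spc25, a kinetochore subunit outside this list, fell. The score was 1.31 in mouse 61719, 1.06 in 61721 and 0.77 in 61927, and 0.07 to 0.21 in the other 3 injected retinas, against -0.46 to 0.39 in PBS retinas. Mki67, a marker of cycling cells, rose by 1.10 (FDR = 0.015), and its call was lost without mouse 61927 (FDR = 0.056). The retinas of 61719, 61721 and 61927 also had the 3 highest monocyte scores (3.13, 2.42 and 2.56), and the part of leukocytes in the values was not tested.

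Genes encoded by mitochondrial DNA fell in 7 of 13 cases (median -0.21, batch 1 -0.23), in 1 without mouse 61720, 2 without 61721 or 61722 and 3 without the 2 retinas holding lens RNA. Over all genes tested, 3424 of 18920 were lower with all retinas and 2074 of 19071 without mouse 61720. The counts were 2800 of 18946 without mouse 61721, 2975 of 19031 without 61722 and 2684 of 18973 without those 2 retinas. B cell genes were higher in 3 of 5 cases and genes of red blood cells in 0 of 5. Endothelial and pericyte genes were higher in 6 of 13 cases (median 0.21) and lower in 0.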
